A study of Mus musculus with 1677 samples.

Results

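The genes described here are 42 interferon-stimulated genes, genes whose transcription rises when a cell is exposed to type I, II or III interferon. They were chosen by name, and all 42 were found among the 24533 gene rows used of the count table. The table came from a study of feeding time in which polyadenylated RNA of 22 tissues was sequenced from wild-type C57BL/6J mice, bought at 10 weeks of age and first housed for 2 weeks on chow. All mice then ate a Western diet (45% fat, 17% sucrose) for 7 weeks. Under time-restricted feeding (TRF) food was given for 9 h, from ZT13 to ZT22, and under ad-libitum feeding (ALF) it was given without restriction, where ZT is the number of hours since the light came on. Sampling was done at 12 clock times, ZT0 to ZT22, and the table holds 518 TRF and 517 ALF libraries, 21 to 24 of TRF and 22 to 24 of ALF in each tissue. The labels do not state that replicate libraries came from separate mice, so every p-value measures the spread between these libraries.

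Type I and III interferons bind receptors that act through the kinases JAK1 and TYK2, and these then activate a complex that contains STAT2 and IRF9. This complex binds the interferon-stimulated response element (ISRE), while interferon gamma acts mainly at gamma-activated sites (GAS). The induced genes include enzymes that sense viral RNA, such as the oligoadenylate synthetases, proteins that block viral replication, and feedback regulators such as USP18. In metabolic tissues they are known as part of the resident and infiltrating immune response, and parenchymal cells also express them.

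RefSeq promoter windows of assembly GRCm38.p6, from 250 bases before to 50 bases after a gene's start, were matched for 31 of the 42 genes. An ISRE core, searched as GAAANNGAAA and its reverse complement TTTCNNTTTC, was found in the windows of 18 of these 31 genes (58.1%), against 3.99% of all 27025 genes with a window. The GAS core TTCNNNGAA, which is its own reverse complement and may overlap an ISRE match, was found in 7 of the 31 (22.6%), against 9.55% of all genes. A match is a description of the letters and not a binding site. As examples of the element, the stretches of up to 30 bases around a match in 11 of the 18 genes, taken from several roles by hand, are printed 5′ to 3′ on the gene's strand, with the matched letters in capitals.
Oas1a: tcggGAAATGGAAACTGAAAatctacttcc
Oas1g: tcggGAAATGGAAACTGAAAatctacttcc
Oas3: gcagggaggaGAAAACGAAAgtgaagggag
Ifit1: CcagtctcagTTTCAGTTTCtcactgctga
Ifit3: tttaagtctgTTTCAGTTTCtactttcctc
Isg15: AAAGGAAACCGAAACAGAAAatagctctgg
Rsad2: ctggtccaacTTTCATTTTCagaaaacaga
Bst2: ccagGAAAATGAAACTGAAAggctgcagtt
Stat2: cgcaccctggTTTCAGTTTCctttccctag
Gbp2: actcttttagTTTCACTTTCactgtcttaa
Irgm1: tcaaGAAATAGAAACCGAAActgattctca
Oas1a and Oas1g, neighbouring paralogs of the oligoadenylate synthetase cluster, carried the same 30 bases. Isg15, the ubiquitin-like protein that gives the ISG15 pathway its name, had 3 overlapping matches, and its whole window (GRCm38, minus strand, chr4:156200769-156201068) is shown because it held the most matches of the family and the gene was higher in TRF in 6 tissues and lower in none.
Isg15 window: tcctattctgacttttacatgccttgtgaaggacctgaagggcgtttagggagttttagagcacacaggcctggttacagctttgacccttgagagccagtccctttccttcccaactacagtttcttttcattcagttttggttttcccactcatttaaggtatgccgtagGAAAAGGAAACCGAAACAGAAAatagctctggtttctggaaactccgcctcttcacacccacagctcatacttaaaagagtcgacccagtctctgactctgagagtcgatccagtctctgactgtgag
In the iWAT comparison described below, 16 of the 18 genes with an ISRE match and 12 of the 13 without one were higher in TRF. The median number of tissues in which a gene was higher in TRF was 3.5 with a match and 4.0 without.

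Total counts per library had a median of 11.3 M the lowest was 2.26 M, and 3 libraries were above 100 M. A total of 15 libraries had a profile closer to another sampled tissue than to their own, among them 5 ALF libraries of inguinal fat (iWAT) that were nearest to epididymal fat (eWAT). In TRF at ZT4, 1 duodenum library was nearest to ileum (r of 0.987, against 0.955 with its own tissue). At the same time, 1 TRF ileum library was nearest to duodenum (0.983, against 0.952). Both are numbered replicate 2 and their names hold the same code, 15F. Whether their labels were exchanged was not tested. All 15 libraries stayed in the main fits. A marker chosen for each tissue was highest in the labelled tissue for 16 of the 22 tissues. Adipoq was used for iWAT and eWAT, Fabp2 for duodenum and jejunum, and Snap25 for the dorsomedial nucleus (DMH) and amygdala. Tissues with a shared marker could not all be highest, so these cases do not test their identity. Adipoq was higher in eWAT, Fabp2 in ileum and Snap25 in dentate gyrus. In the arcuate nucleus (ARC) Agrp had a median of 7.2 CPM, against 7.27 CPM in hypothalamus.

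Over the whole day, the 42 genes gave 841 tests in the 22 tissues, since some were too low to test in some tissues, and 26 genes were tested in every tissue. At an adjusted p under 0.05 in edgeR's quasi-likelihood test, 178 of these tests (21.2%) were higher in TRF and 34 (4.04%) were lower in TRF. Over all genes and tissues the same test called 10.0% higher and 9.72% lower. Calls of higher levels fell in 15 tissues and calls of lower levels in 8, and 6 tissues had neither. Of the 42 genes, 41 were higher in TRF in at least 1 tissue and 19 were lower in none. The matching shares over all genes were not taken, and in iWAT alone 35.1% of all genes were higher. Without the libraries numbered replicate 1, the counts over all tissues were 49 higher and 19 lower, and without those numbered replicate 2 they were 108 and 13. Each of these fits uses about 12 libraries a group. In bulk tissue, fewer cells of a type and less RNA per cell cannot be told apart.

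**Figure D1:**
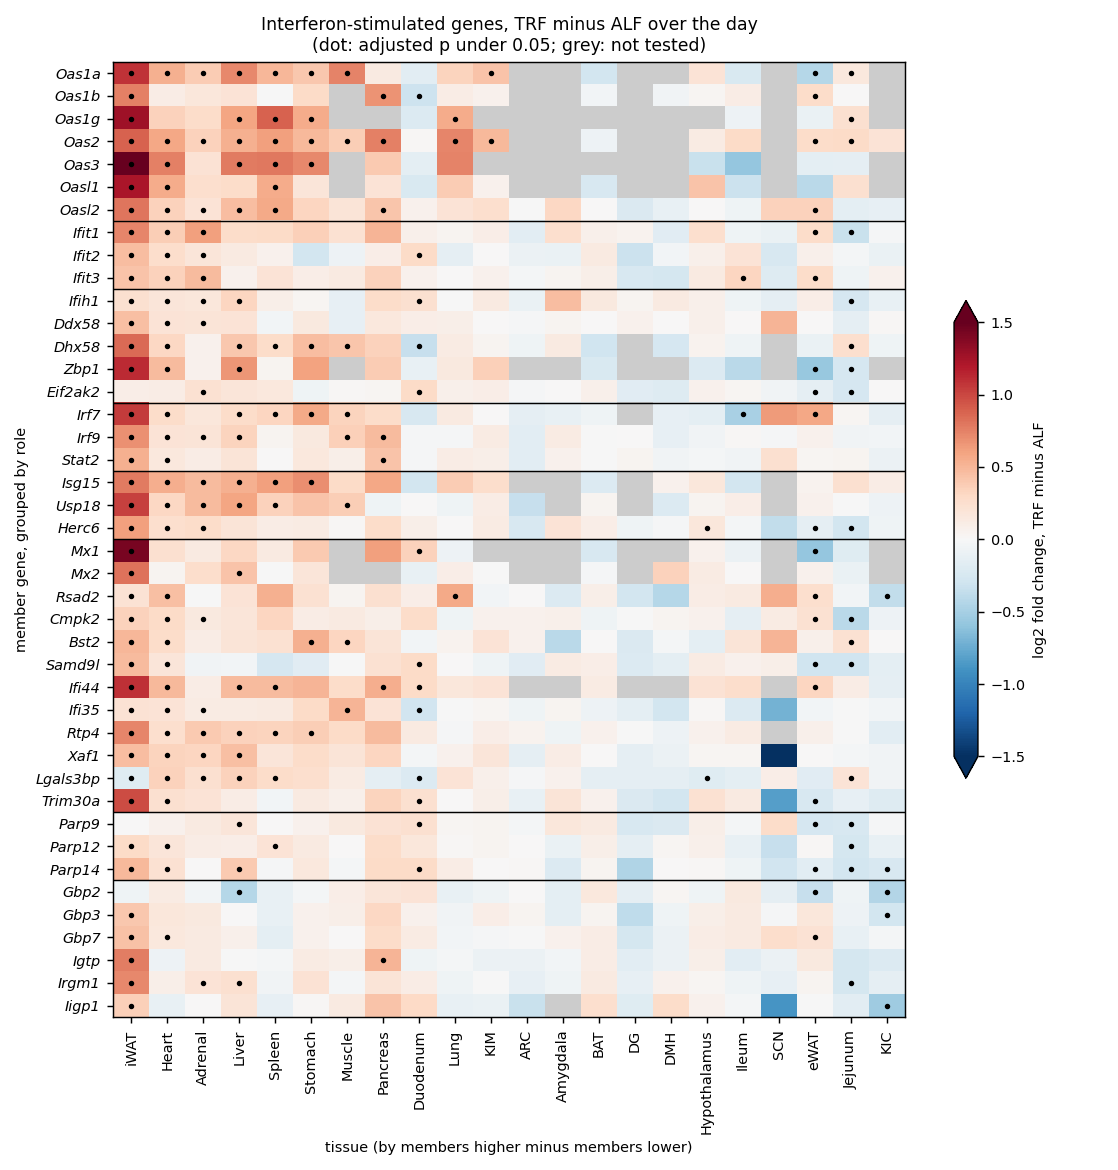
Log2 fold change over the day (TRF minus ALF, colour) of each of the 42 genes, in rows grouped by role, in each of 22 tissues, in columns. Dots mark an adjusted p under 0.05 and grey cells were not tested. The iWAT column holds 38 higher calls, and eWAT, jejunum and kidney cortex (KIC) stand at the right, with 10, 11 and 5 lower calls.

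The oligoadenylate synthetases make the second messenger that activates RNase L on sensing double-stranded RNA, and the 7 members of this family held 45 of the 178 higher calls. They were higher in 45 of 110 tests (40.9%) and lower in 2. Oas2 (GRCm38, chr5:120730333-120749886, beside Oas1a, Oas1b, Oas1g and Oas3) could be tested in 17 tissues and was higher in 12 of them and lower in none. In iWAT, Oas2 ran from 16.1 CPM (counts scaled to library size, per 1 M reads) through a median of 27.3 to 51.2 CPM in TRF, and from 9.06 through 14.2 to 33.4 CPM in ALF. The groups overlapped, with 4 of 24 TRF libraries above every ALF library, and the mean was higher in TRF at all 12 clock times. The fold changes of Oas2 ran from 0.27 in eWAT to 0.88 ± 0.12 (SE, n = 24 and 24) in iWAT, with an adjusted p of 3.2e-07 in iWAT by edgeR's quasi-likelihood test. In the heart, 13 of 24 TRF libraries had more Oas2 than any ALF library (medians of 16.3 and 11.4 CPM, log2 fold change 0.58 ± 0.08, adjusted p = 1.1e-06). In the lung it reached a median of 16.1 CPM in TRF against 8.87 CPM in ALF (0.73 ± 0.13, n = 23 and 23, adjusted p = 0.0029). In the pancreas the medians were 10.1 CPM in TRF and 5.44 CPM in ALF, and the highest TRF library had 19.6 CPM.

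Oas1a, whose counts cannot be separated with certainty from those of its near-identical neighbour Oas1g, was higher in 9 of 16 tissues and lower in eWAT. Its fold changes among the higher calls ran from 0.16 in the jejunum to 1.08 ± 0.14 in iWAT. Oas1g was higher in 6 of 11 tissues, with the smallest p in the spleen, where it had 1.96, 5.01 and 13.6 CPM (lowest, median, highest) in TRF and 1.39, 2.68 and 4.99 CPM in ALF. There, 11 of 21 TRF libraries lay above every ALF library. Oasl2, an OAS-like protein, was higher in 7 of 22 tissues. Oas3 was higher in 5 of 13 tissues, and its fold change of 1.86 ± 0.26 in iWAT was the largest of any member called over the day. Oas1b, which has a premature stop codon in C57BL/6 mice, was higher in iWAT, pancreas and eWAT and lower in the duodenum. Oasl1, which restrains translation of Irf7 mRNA in mice, was higher in iWAT, heart and spleen.

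**Figure D2:**
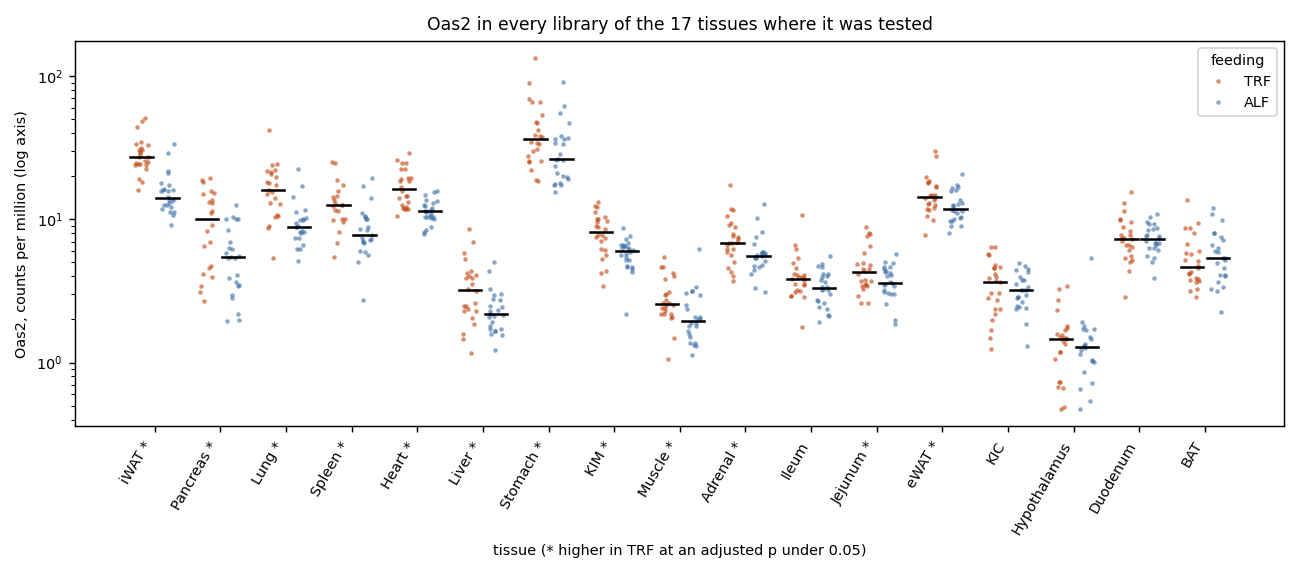
Oas2 in CPM (log axis) in each library of the 17 tissues where it was tested, TRF at the left and ALF at the right of each pair, with a bar at the median. Tissues run from the largest to the smallest fold change and a star marks the 12 tissues with a higher level in TRF at an adjusted p under 0.05.

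The IFIT proteins, which bind viral RNA lacking host cap marks, were higher in 13 of 66 tests (19.7%) and lower in 1. Ifit3 was higher in 5 tissues and Ifit1 in 4, with the largest Ifit1 rise in iWAT. Adrenal Ifit1 ran from 46.1 through a median of 70.2 to 158 CPM in TRF and from 35.7 through 47.4 to 87.6 CPM in ALF, and 6 of 24 TRF libraries exceeded all ALF libraries (0.62 ± 0.10, adjusted p = 2.2e-05). Ifit1 was lower in the jejunum. Reads of Ifit3 may be shared with its paralog Ifit3b.

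Among the sensors and the kinase PKR, 20 of 101 tests were higher and 6 lower. Dhx58, which encodes LGP2, a regulator of RIG-I-like receptors, was higher in 7 of 20 tissues and lower in the duodenum. Ifih1, the sensor MDA5, was higher in 5 of 22 and lower in the jejunum, and Ddx58, the sensor RIG-I, was higher in iWAT, heart and adrenal. Zbp1, a sensor of Z-form nucleic acid, was higher in iWAT, liver and heart and lower in eWAT and jejunum. Eif2ak2, which encodes PKR, was higher in the duodenum and adrenal and lower in jejunum and eWAT.

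The transcription factors were higher in 16 of 65 tests and lower in 1. Irf7, the factor that amplifies type I interferon production, was higher in 7 of 21 tissues. Its levels in iWAT were 60.4, 113 and 203 CPM (lowest, median, highest) in TRF and 34.5, 50.7 and 172 CPM in ALF, with 2 of 24 TRF libraries above the ALF range (1.05 ± 0.15, adjusted p = 5.8e-07). Irf7 was lower in the ileum, where the medians were 29.8 CPM in TRF and 44.3 CPM in ALF (-0.49 ± 0.16, adjusted p = 0.042). Irf9 was higher in 6 of 22 tissues, and Stat2 in iWAT, pancreas and heart.

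Isg15, its protease Usp18 and the ligase Herc6 were higher in 16 of 59 tests (27.1%) and lower in 2. Isg15 and Usp18 were each higher in 6 tissues and lower in none. In the stomach Isg15 ran from 11 through a median of 28 to 200 CPM in TRF and from 7.51 through 17.1 to 94.6 CPM in ALF. There 1 of the 24 TRF libraries exceeded the ALF range (0.70 ± 0.24, adjusted p = 0.030). Herc6, the main mouse ligase for ISG15, was lower in jejunum and eWAT.

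The 12 antiviral effectors and other induced genes were higher in 49 of 243 tests (20.2%) and lower in 10. Ifi44 led this group with 7 of 17 tissues, followed by Rtp4 with 6. Lgals3bp, a secreted glycoprotein, was higher in 5 tissues and lower in duodenum, hypothalamus and iWAT. Mx1, which carries a deletion in C57BL/6 mice and gives no full protein there, was higher in iWAT and duodenum and lower in eWAT. Rsad2, the enzyme viperin, and its neighbour on chromosome 12, Cmpk2, were each higher in 4 tissues. In the lung, Rsad2 had 20, 36.2 and 114 CPM in TRF and 12.9, 24.8 and 38.1 CPM in ALF (lowest, median, highest), so that 11 of 23 TRF libraries lay above every ALF library (0.57 ± 0.15, adjusted p = 0.031).

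For the PARP family and the interferon-inducible GTPases the shares of higher calls lay near the 10.0% of all genes, and no test between families was made. Parp9, Parp12 and Parp14, which are ADP-ribosyltransferases of the antiviral response, were higher in 9 of 66 tests (13.6%) and lower in 6 (9.09%). The guanylate-binding proteins and immunity-related GTPases, which act on vacuoles of intracellular pathogens and respond strongly to interferon gamma, were higher in 10 of 131 tests (7.63%) and lower in 6 (4.58%), and 5 of the 10 higher calls were in iWAT. Gbp2 was the 1 member of the 42 that was higher in no tissue. It was lower in KIC, liver and eWAT, and in the liver it ran from 3.94 through 5.68 to 7.41 CPM in TRF against 3.34 through 7.52 to 13.9 CPM in ALF (-0.43 ± 0.13, adjusted p = 0.013). Reads may be shared among the Gbp paralogs, which lie in 1 cluster on chromosome 3.

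In iWAT, 38 of the 42 members were higher in TRF and 1 was lower, against 35.1% of all genes higher. The members' median log2 fold change was 0.65, and that of all 14609 genes tested was 0.02. All 7 OAS genes, all 3 IFIT genes and 11 of 12 effectors were higher. Ifi44 had the smallest p, with 7.53, 15.6 and 24.3 CPM in TRF and 4.61, 7.14 and 15.9 CPM in ALF (lowest, median, highest). Of the TRF libraries, 11 of 24 were above all ALF libraries (1.10 ± 0.13, adjusted p = 1.5e-08). Oas1a had 10.8, 24.3 and 47.0 CPM in TRF and 6.52, 10.3 and 25.8 CPM in ALF (1.08 ± 0.14, adjusted p = 9.7e-08). Eif2ak2, Gbp2 and Parp9 did not pass, with log2 fold changes of 0.10, -0.06 and -0.00. The exception in direction was Lgals3bp, with medians of 420 CPM in TRF and 466 CPM in ALF (-0.18 ± 0.07, adjusted p = 0.020), and it no longer passed without replicate 1 or without the libraries of another profile.

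Markers of immune cells were also higher in TRF iWAT. All 14 lymphocyte markers were higher, with a median log2 fold change of 1.38, and their summed level ran from 660 through a median of 1427 to 2526 CPM in TRF and from 19.6 through 496 to 3226 CPM in ALF. All 6 plasmacytoid dendritic cell markers, all 6 natural killer cell markers and 7 of 11 macrophage markers and 3 of the 4 neutrophil markers tested were higher as well. Of the 7 adipocyte markers 6 were lower and 1 higher (median -0.53), and of the 7 endothelial markers 6 were lower (median -0.37). No marker of these lists was at 0 in every library. The ALF library with the highest lymphocyte sum, 3226 CPM, also had the highest member level of the 24 ALF libraries, 1.01 above their median on the log2 scale. The TRF library with the highest sum ranked 6 of 24 in member level. The libraries with the lowest sums ranked 21 of 24 in ALF and 22 of 24 in TRF. The 5 ALF libraries nearest to eWAT had lymphocyte sums of 19.6 to 237 CPM and the other 19 had 356 to 3226 CPM, all TRF libraries being at 660 CPM or more. The part of these cells in the members' rise was not tested. Without the libraries of another profile, 37 members were higher in iWAT, and without the replicate 1 libraries 25 were.

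In the heart, 31 of 42 members were higher and none was lower, against 15.2% of all genes higher. The median log2 fold change was 0.25, so the rises were smaller than in iWAT, and 5 of the 31 reached 0.5. Of the 12 effectors 10 passed, as did 5 of the 7 OAS genes and all IFIT genes, transcription factors and ISG15 pathway genes. Parp12 ran from 22.6 through 27.5 to 32 CPM in TRF and from 22.0 through 23.9 to 27.5 CPM in ALF, and 12 of 24 TRF libraries exceeded the ALF range (0.18 ± 0.03, adjusted p = 2.0e-05). Isg15 had 5.60, 8.03 and 13 CPM in TRF and 4.07, 5.62 and 8.61 CPM in ALF (0.54 ± 0.10, adjusted p = 2.8e-05). Lgals3bp, which was lower in iWAT, was higher here at all 12 clock times (medians of 52.6 CPM in TRF and 41.8 CPM in ALF, 0.35 ± 0.05, adjusted p = 2.5e-06). Of the macrophage markers 8 of 11 were higher, with a median sum of 541 CPM in TRF (445 to 671 CPM) and 430 CPM in ALF (386 to 654 CPM), and their part in the members' rise was not tested. The ALF library with the highest macrophage sum had the highest member level in ALF, the TRF library with the highest sum ranked 21 of 24, and the TRF library with the lowest sum ranked 24 of 24. Without replicate 1 only 4 members were higher, and without replicate 2 there were 31.

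In the liver, 20 of 42 members were higher and 1, Gbp2, was lower, against 9.81% of all genes higher. Oas1a had 1.97, 6.43 and 11.2 CPM (lowest, median, highest) in TRF and 2.97, 3.78 and 8.22 CPM in ALF, with 8 of 24 TRF libraries above and 1 below the ALF range (0.72 ± 0.13, adjusted p = 7.9e-05). Usp18 had 8.28, 16.8 and 38.9 CPM in TRF and 4.84, 11.3 and 21.4 CPM in ALF (0.59 ± 0.14, adjusted p = 0.0023). Irf9, Oas3, Lgals3bp and Isg15 completed the 6 members with the smallest p, with fold changes of 0.33, 0.78, 0.34 and 0.53. None of the 3 IFIT genes passed over the day. Macrophage markers were higher in 3 of 11, with summed levels of 203 to 607 CPM in TRF (median 381) and 185 to 601 CPM in ALF (median 365). The library with the highest macrophage sum ranked 24 of 24 in member level in TRF and 15 of 24 in ALF. The library with the lowest sum ranked 8 in TRF and 6 in ALF, and the part of macrophages was not tested. Without replicate 1 the liver had 1 higher member and without replicate 2 it had 5.

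In the adrenal, 19 of 42 members were higher and none lower, against 16.6% of all genes higher. All 3 IFIT genes and all 3 ISG15 pathway genes were among them. Usp18 had 11.1, 19.2 and 35.4 CPM in TRF and 8.95, 13.2 and 21.2 CPM in ALF, and 8 of 24 TRF libraries were above all ALF libraries (log2 fold change 0.48 ± 0.10, adjusted p = 4.2e-04). Isg15 had medians of 19.9 CPM in TRF and 14.5 CPM in ALF, with 10 TRF libraries above and 2 below the ALF range. Macrophage markers moved the other way, with 6 of 11 lower and none higher and median sums of 836 CPM in TRF and 948 CPM in ALF, and 4 of the 8 lymphocyte markers tested were lower. Of the other interferon-related genes, MHC class I presentation had 6 of 12 lower and none higher. Without replicate 1 no adrenal member passed in edgeR, without replicate 2 there were 16, and without ZT0 there were 12.

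In the spleen, 14 of 42 members were higher and none lower, against 5.79% of all genes higher. Of the 7 OAS genes 6 passed, and they held the 6 smallest p-values. Oasl2 had 25.2, 47.0 and 81.3 CPM in TRF and 22.1, 30.6 and 71.4 CPM in ALF, so that 1 of 21 TRF libraries exceeded the ALF range (0.57 ± 0.10, n = 21 and 23, adjusted p = 6.9e-04). Oas1a had 20.3, 31.5 and 48.6 CPM in TRF and 17.9, 23.4 and 35.0 CPM in ALF, and 9 TRF libraries exceeded the range (0.50 ± 0.09, adjusted p = 0.0013). No IFIT gene or GTPase passed. Neutrophil markers were higher in 5 of 6, with median sums of 1134 CPM in TRF (276 to 5958 CPM) and 303 CPM in ALF (100 to 3270 CPM), and of the 11 macrophage markers 1 was higher and 0 were lower. The part of neutrophils was not tested. The count fell to 0 without replicate 2, to 9 without replicate 1 and to 8 without ZT22.

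In eWAT, 10 of 42 members were higher, against 30.2% of all genes, and 10 were lower, against 29.0% of all genes. Irf7 was the member with the smallest p and was higher at all 12 clock times, with 22.5, 35.2 and 49.4 CPM in TRF and 17.3, 22.8 and 42 CPM in ALF (0.58 ± 0.09, adjusted p = 3.6e-06). Parp9 was lower, with 55.9, 64.8 and 102 CPM in TRF and 62.6, 80.7 and 113 CPM in ALF, and 9 TRF libraries were below every ALF library (-0.25 ± 0.04, adjusted p = 1.9e-05). Samd9l (-0.30 ± 0.06), Mx1 (-0.58 ± 0.13), Gbp2 and Zbp1 were also lower. Macrophage markers were lower in 10 of 11, with median sums of 1893 CPM in TRF (1445 to 5764 CPM) and 3797 CPM in ALF (1404 to 7932 CPM), 4 of 6 natural killer cell markers were lower, and 6 of 7 adipocyte and 6 of 7 endothelial markers were higher. The part of these cells in the members' changes was not tested. The eWAT library with the highest macrophage sum ranked 6 of 24 in member level in TRF and 3 of 24 in ALF. The library with the lowest sum ranked 2 in TRF and 19 in ALF. The TRF effect differed between the fat depots for 34 of 42 members, against 58.6% of all genes with a difference either way. All 34 had the higher log2 fold change in iWAT. Among them, Gbp2 (-0.07 in iWAT and -0.33 in eWAT) and Parp9 (-0.01 and -0.25) did not rise in iWAT. The median difference was 0.48 on the log2 scale. Mx1 (1.98 ± 0.26, adjusted p = 2.9e-09), Trim30a (1.21 ± 0.16) and Oas1a (1.5 ± 0.21) had the smallest p. Among the 8 members whose difference did not pass were Ifit3 (0.42 in iWAT and 0.29 in eWAT), Cmpk2 (0.33 and 0.23) and Rsad2 (0.21 and 0.25). Without replicate 1, 19 members differed between the depots, and in eWAT alone 1 was higher and 3 were lower. Without replicate 2, 3 were higher and 6 lower in eWAT, and 5 were higher without ZT18, as without ZT20 or without ZT22.

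In the jejunum, 11 of 42 members were lower, against 22.3% of all genes, and 6 were higher, against 22.7%. Cmpk2 had 20.6, 35.7 and 71.2 CPM in TRF and 31.5, 47.2 and 72.8 CPM in ALF, with 11 TRF libraries below every ALF library (-0.40 ± 0.07, adjusted p = 4.5e-05). Irgm1 had 15 of 24 TRF libraries below the ALF range, with medians of 45.3 CPM in TRF and 54.1 CPM in ALF (-0.26 ± 0.05, adjusted p = 5.1e-05). All 3 PARP genes fell there, while Oas2, Oas1a and Oas1g rose. In the duodenum, 9 members were higher, against 19.9% of all genes, and 4 were lower, against 20.9%. Eif2ak2, Parp9, Parp14, Samd9l and Ifih1 were higher in the duodenum and lower in the jejunum, Dhx58 and Lgals3bp were lower in the duodenum and higher in the jejunum, and the difference between these segments was not tested. The shares of members higher in the duodenum and lower in the jejunum lay near those of all genes. The shares lower in the duodenum and higher in the jejunum lay below those of all genes. With offsets for the GC content of transcripts, the duodenum had 2 higher and 0 lower and the jejunum 1 higher and 5 lower. Without replicate 1 the duodenum had 0 higher and the jejunum 2, and without replicate 2 the duodenum had 0 lower and the jejunum 0 higher and 4 lower. In the ileum 1 member was higher, against 3.93% of all genes, and 1 lower, against 5.12%.

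Smaller counts were found elsewhere. In the stomach 9 members were higher, against 14.4% of all genes, in the muscle 8 of 35 tested, against 14%, and in the pancreas 7 of 40, against 2.97%. The stomach count ran between 0 and 17 when a replicate number or a clock time was left out, the muscle count between 0 and 10, and the pancreas count between 0 and 6. Muscle Ifi35 had 8.87, 16 and 27.5 CPM in TRF and 8.45, 11.3 and 15.8 CPM in ALF, and 13 of 24 TRF libraries were above the ALF range (0.51 ± 0.07, adjusted p = 1.2e-05). Macrophage markers in muscle were higher in 7 of 11, with median sums of 281 CPM in TRF and 187 CPM in ALF; their part in the rises was not tested. In KIC, 5 members were lower, against 6.29% of all genes, among them Rsad2, Iigp1 and Gbp2, and 0 to 5 were lower when a replicate number or a clock time was left out. In KIC 5 of 7 endothelial markers were lower (median -0.31), with median sums of 226 CPM in TRF and 317 CPM in ALF, and their part was not tested. The lung had 3 higher members, against 1.43% of all genes, and the kidney medulla (KIM) had 2, Oas2 and Oas1a, against 1.92%.

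In brown fat (BAT), ARC, amygdala, dentate gyrus (DG), DMH and suprachiasmatic nucleus (SCN), edgeR and DESeq2 both called 0 members over the day. At an unadjusted p under 0.05 the counts were 5, 2, 2, 4, 2 and 1 in that order, of 40, 31, 29, 28, 34 and 28 members tested. These tissues also had few or no calls among all genes, from 0 to 25, so the 0 was not particular to the members. In the hypothalamus, where 32.4% of all genes were called, 1 member was higher (Herc6) and 1 lower (Lgals3bp) of 41 tested.

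The feeding window was then set apart from the other hours, with 1 feeding effect for ZT0 to ZT12 and another for ZT14 to ZT22, when TRF mice had access to food. Over all tissues, 75 member tests (8.92%) were higher in ZT0 to ZT12, against 5.35% of all genes, and 146 (17.4%) in ZT14 to ZT22, against 7.37%. Lower were 17 (2.02%, against 5.61%) in ZT0 to ZT12 and 18 (2.14%, against 7.14%) in ZT14 to ZT22. In iWAT 37 members were higher in each window, against 25.6% and 29.4% of all genes. In the heart 18 were higher in ZT0 to ZT12 (7.36% of all genes) and 22 in ZT14 to ZT22 (9.88%). In the liver 2 were higher in ZT0 to ZT12 (3.62% of all genes) and 24 in ZT14 to ZT22 (12.1%). In the adrenal the counts were 4 (9.07%) and 12 (8.59%), in the spleen 0 (0%) and 13 (7.06%), and in the stomach 0 (0.735%) and 12 (16.1%). The duodenum had the opposite order, with 10 higher in ZT0 to ZT12 (17.5%) and 1 in ZT14 to ZT22 (7.27%). In the jejunum 6 were lower in ZT0 to ZT12 (15.9%) and 10 in ZT14 to ZT22 (14.9%). A count in 1 window and not in the other does not show a difference, and the difference itself was tested.

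In the liver the effect was larger in ZT14 to ZT22 for 6 of 42 members, against 7.68% of all genes with a difference either way. Oasl1 had the smallest p, with a fold change of 0.75 ± 0.17 in ZT14 to ZT22 and -0.07 ± 0.14 in ZT0 to ZT12 (difference 0.82 ± 0.21, adjusted p = 0.014). Eif2ak2 (difference 0.60 ± 0.16, adjusted p = 0.020), Oas2 (0.96 ± 0.29), Oas1b (1.10 ± 0.34), Irf9 (0.40 ± 0.13) and Stat2 (0.50 ± 0.16) were the others. In eWAT, 2 of 42 members had a larger effect in the feeding window, against 2.21% of all genes with a difference, Ifit3 with 0.71 ± 0.13 and -0.01 ± 0.11 in the later and earlier hours and Ddx58 with 0.16 and -0.11. In the stomach it was 1 of 42, Oasl1, against 0.607% of all genes (difference 0.77 ± 0.17, adjusted p = 0.035). In the other 19 tissues no member passed in edgeR. With either replicate number left out, none of these 9 differences passed.

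**Figure D3:**
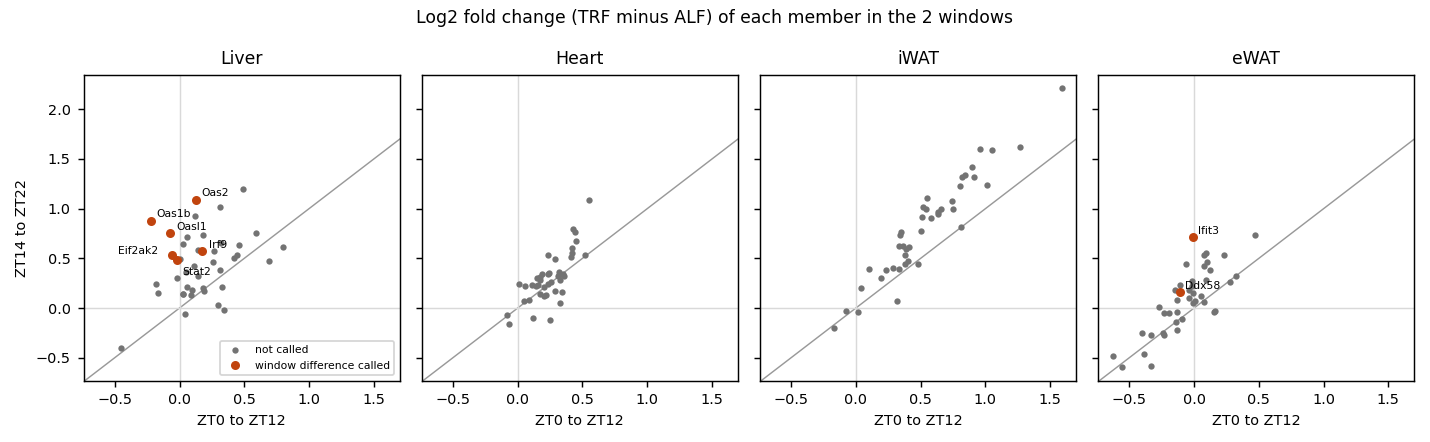
Log2 fold change (TRF minus ALF) of each member in ZT0 to ZT12 (horizontal) and in ZT14 to ZT22 (vertical) in liver, heart, iWAT and eWAT. The grey diagonal marks equal effects, and coloured, named points are the 6 liver and 2 eWAT members whose window difference passed. The members' median was 0.80 in ZT14 to ZT22 and 0.51 in ZT0 to ZT12 in iWAT, and 0.47 and 0.13 in that order in liver.

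A 24 h rhythm was found in 27.6% of 841 member tests in TRF and in 11.7% in ALF, and these shares were 27.4% and 11.7% over all genes. Rhythms that differed between TRF and ALF made up 39 member tests (4.64%), against 1.74% over all genes, and they lay in 4 tissues. In BAT only 0.699% of all genes were rhythmic in TRF and 0.804% in ALF, and in the spleen 2.99% and 0.414%. No member was rhythmic in either of these tissues, and few genes followed the labelled clock times there. The cause was not tested. In the liver 32 of 42 members were rhythmic in TRF, against 49.0% of all genes, and 23 in ALF, against 25.7%, and 15 differed, against 8.71%. The liver peaks averaged 1.10 h after lights on in TRF and 5.66 h in ALF among the rhythmic members, and all 23 peaks in ALF lay between ZT0 and ZT13. Oasl1 peaked at 22.5 ± 0.656 h in TRF and 5.11 ± 0.888 h in ALF with amplitudes of 0.54 and 0.40 (difference adjusted p = 2.6e-04). Dhx58 peaked at 0.82 h in TRF and 4.75 h in ALF (adjusted p = 0.0014), and Isg15 at 2.27 h in TRF and 6.53 h in ALF (adjusted p = 0.0086). Liver Isg15 averaged 32 CPM at ZT22 in TRF against 9.46 CPM in ALF, and at ZT16 it averaged 8.68 CPM in TRF and 7.19 CPM in ALF.

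In the adrenal 30 of 42 members were rhythmic in TRF, against 39.2% of all genes, and 4 in ALF, against 11.3%. The rhythm differed for 12, against 1.15% of all genes. Amplitudes were larger in TRF for 40 of 42 members, with medians of 0.32 in TRF and 0.14 in ALF on the log2 scale, and peaks of rhythmic members averaged 1.10 h in TRF. Ifit3 had the smallest p and peaked at 22.8 h in TRF and 12.2 h in ALF (adjusted p = 0.0042), followed by Trim30a, an inhibitor of inflammatory signalling, with amplitudes of 0.46 in TRF and 0.19 in ALF (adjusted p = 0.0086), and Ddx58 with 0.31 and 0.12 in that order (adjusted p = 0.010). Adrenal Ifi44 averaged 90.7 CPM at ZT0 and 32 CPM at ZT12 in TRF, against 51.4 CPM at ZT0 and 51.4 CPM at ZT12 in ALF.

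In eWAT 16 of 42 members were rhythmic in TRF, against 30.6% of all genes, and 3 in ALF, against 9.37%, and 11 differed, against 11.3% of all genes. Ifit3 (adjusted p = 0.0014), Cmpk2 (0.0087) and Ddx58 (0.010) had the smallest p for the difference. Cmpk2 had an amplitude of 0.39 in TRF and 0.10 in ALF, while Ddx58 had the reverse order, 0.07 in TRF and 0.19 in ALF. In the heart 1 of 42 members, Ifit1, differed (adjusted p = 0.042), against 5.18% of all genes. The ileum had 24 rhythmic members in TRF, against 45.5% of all genes, and 1 in ALF, against 3.65%, with no member passing for the difference in edgeR. Without replicate 1 no rhythm difference passed in any tissue, and without replicate 2 there were 2.

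**Figure D4:**
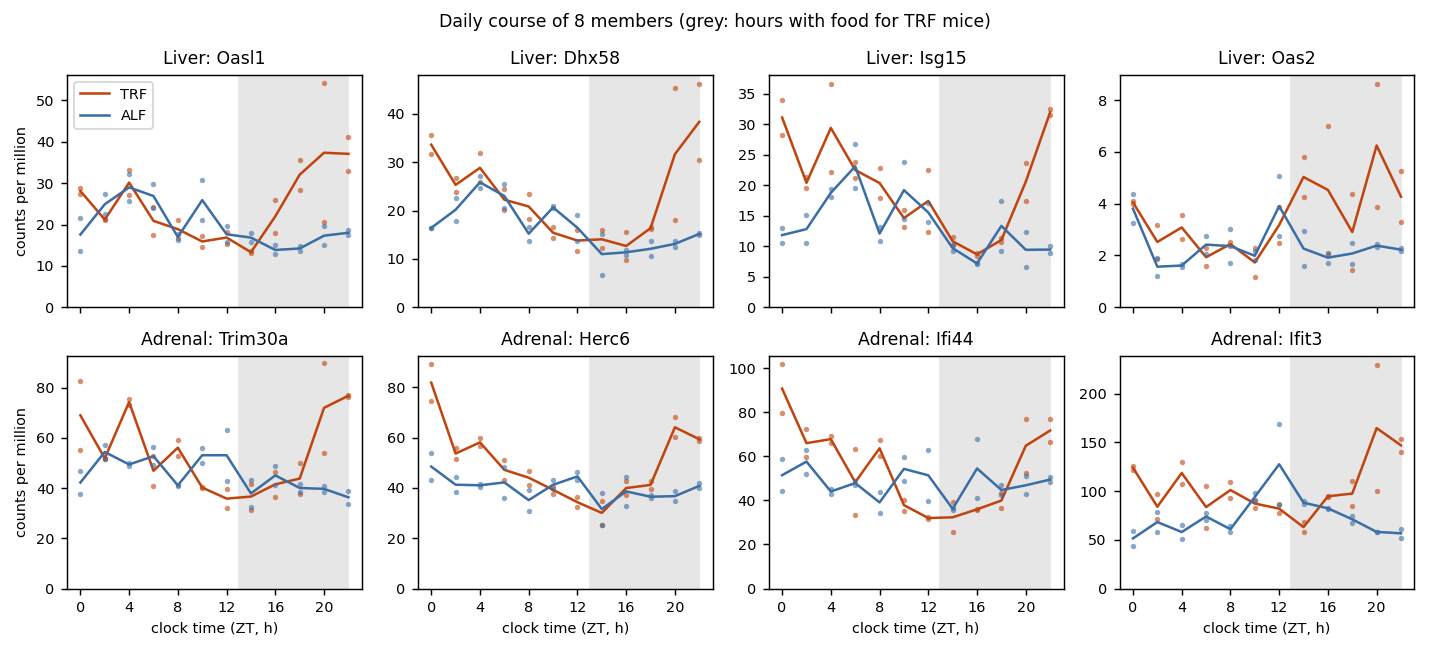
CPM of 4 members in liver (top) and 4 in adrenal (bottom) by clock time, with points for libraries and lines through the means at each time, TRF in red and ALF in blue. The hours with food for TRF mice are grey. TRF lines rise toward ZT20 to ZT22 and ZT0, where liver Isg15 reached 32 CPM at ZT22 against 9.46 CPM in ALF.

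Another 2 tissue pairs were compared by the difference of their TRF effects. Between heart and muscle, 5 of 41 members differed, against 19.1% of all genes. Ifi35 rose less in heart than in muscle (0.20 and 0.51, difference -0.31 ± 0.08, adjusted p = 0.0071), while Ifih1, Ifit2, Ddx58 and Parp12 had larger effects in heart. Between KIC and KIM no member of 40 and 0% of all genes differed in edgeR. Whether the tissues of a pair came from the same mice is not stated. Without replicate 1 none of the heart and muscle differences passed, and without replicate 2 there were 3.

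Other genes of the pathway were read beside the members. Of 10 interferon genes, Ifng in the spleen alone was high enough to test and it did not pass (0.01). The 10 together summed to at most 0.821 CPM in TRF and 1.12 CPM in ALF in any iWAT library, and in the heart 9 of the 10 were at 0 in every library. The counts over all tissues that follow stand beside 10.0% of all genes called higher and 9.72% lower, and those in iWAT beside 35.1% higher. Receptor genes gave 7 higher and 8 lower calls in 124 tests. JAK, STAT and IRF genes gave 29 higher and 21 lower in 220, with Irf8 lower in eWAT (-1.47 ± 0.21, adjusted p = 1.6e-06). Nucleic acid receptors and adaptors gave 20 higher and 13 lower in 219, with 7 of 11 higher in iWAT and 10 of 11 lower in eWAT. Genes that restrain the response gave 20 higher and 17 lower in 142, with 4 of 7 lower in eWAT. In eWAT 29.0% of all genes were lower. In iWAT all 7 restraining genes were higher, including Adar, the editor of double-stranded RNA (0.65 ± 0.09), and Samhd1 (0.65 ± 0.10). The MHC class I presentation genes gave 22 higher and 45 lower calls in 260 tests, and 9 of 12 were higher in iWAT, where the immunoproteasome subunits Psmb9 and Psmb8 stood at 0.77 and 0.81. A further 28 interferon-induced genes gave 73 higher and 42 lower calls in 559 tests. Of these, 24 were higher in iWAT and 12 in the heart, led there by Gbp6 (0.58 ± 0.09), and 6 in the liver, among them Ifi27 (0.47 ± 0.08). In KIC 14 of the 26 tested were lower and 0 higher, against 6.29% of all genes lower.

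Whether libraries with the same label share high levels was read from the library names, which hold a number from 13 to 24 for the clock time and a last letter or digit. Names ending in a letter occur in 12 tissues and names ending in a digit in the other 10. The labels do not say that a shared code is a shared mouse. For each library the members' mean of log2(CPM + 0.5) was taken relative to the median of its tissue and feeding group over the day, so the clock time also enters. Code 23B, a TRF library of ZT20, was above its group median in all 12 tissues, from 0.04 in ileum to 0.83 in liver. It was the 1 code with that property among 47 letter codes found in at least 8 tissues. In the liver 41 of 42 members lay above the group median in this library, in the heart 40 of 42 and in iWAT and eWAT 41 of 42 each. It held the highest Oas2 level of the 24 TRF libraries in heart (29.1 CPM, group median 16.3), KIC (6.41, 3.66), liver (8.61, 3.22), eWAT (30.2, 14.3) and iWAT (51.2, 27.3), but ranked 14 of 24 in duodenum and 22 of 24 in muscle. Other letter codes were also mostly high. TRF code 13H was above in 11 of 12 tissues, TRF codes 16B and 17F in 10 of 12 and ALF code 17A in 8 of 10. ALF code 19G, of ZT12, was found in only 5 tissues and was above in 4. Its values were 1.38 in stomach, 0.77 in duodenum, 0.69 in ileum, 0.21 in jejunum and -0.16 in BAT. Code 22H, a TRF library of ZT18, was below its group median in 10 of 12 tissues, down to -0.51 in jejunum and -0.50 in liver, where 1 of 42 members was above the median. Code 20D, of ZT14, was also below in 10 of 12. Other codes were as low or lower. Codes 14H and 23H, TRF libraries of ZT2 and ZT20, were each above in 1 of 12 tissues. TRF code 18F and ALF codes 15E, 21C, 23G and 24G were each above in 2 of 12. Among 46 digit codes none was above or below in every tissue, and the highest share was 8 of 9 tissues above, reached by a TRF code of ZT20 (from -0.36 in ARC to 0.64 in adrenal, median 0.15) and by an ALF code of ZT10 (from -0.05 to 0.68, median 0.15).

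Within a feeding group and clock time, the same comparison leaves the time out. The 12 letter tissues gave the same order of replicate 1 and 2 in at least 11 tissues in 6 of 24 groups. In ALF ZT16 replicate 1 was the lower in all 12, in TRF ZT20 and TRF ZT2 it was the higher in 11 of 12, and in TRF ZT14 the higher in 1 of 12. Across these 24 groups the differences correlated between tissues with a median Pearson r of 0.26 over 66 tissue pairs (from -0.10 to 0.63), and 61 were above 0. For the digit tissues the median was 0.07 over 45 pairs, with adrenal and spleen at 0.80 and with 28 above 0. These values are a description, and the points share library numbering. The SD of this level between libraries was 0.50 in TRF and 0.39 in ALF in the stomach, 0.42 and 0.40 in that order in ARC, and 0.40 and 0.50 in the pancreas. With code 23B and a digit code that was above its group median in 7 of 10 tissues left out, 157 member tests were higher and 34 lower over the day, and with 22H and a digit code above in 1 of 10 tissues left out 175 were higher and 30 lower, against 178 and 34 with all libraries. The pancreas count was 1 in place of 7 in the fit with 157 higher calls. Pancreas library names end in a digit, so 23B has no library there and only the digit code was left out. In the pancreas that TRF library lay at -0.08 relative to its group median, with 12 of 40 members above the median. Its level was thus not high there, and the cause of the smaller count was not tested. The codes left out were chosen after their levels had been seen.

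**Figure D5:**
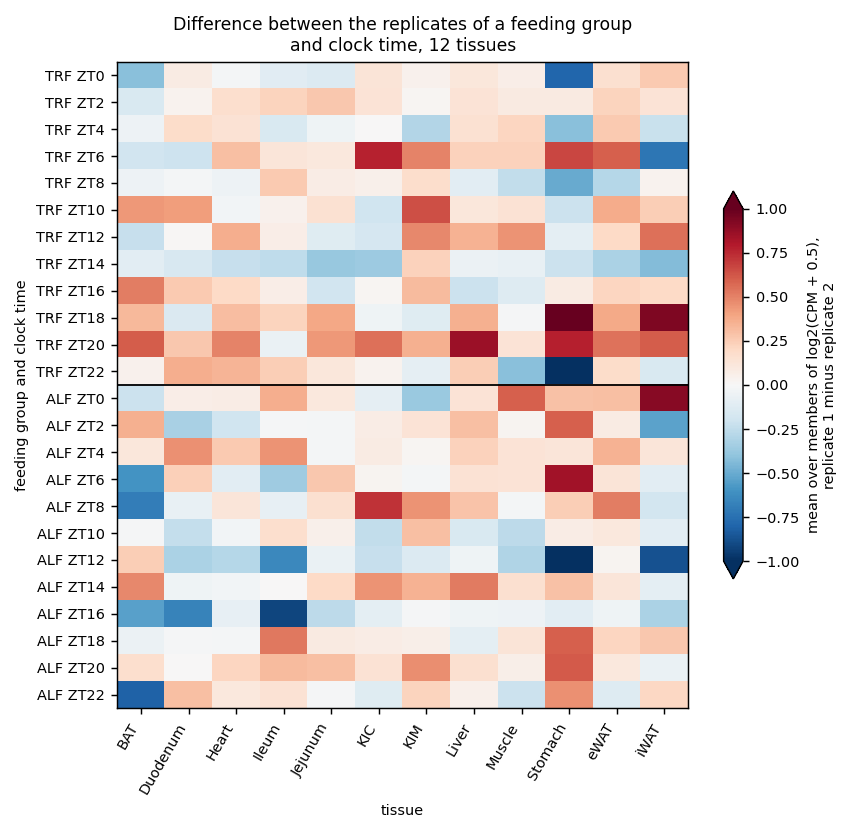
Difference between replicate 1 and replicate 2 in the mean over members of log2(CPM + 0.5), in each feeding group and clock time (rows, TRF above ALF) and each of the 12 tissues whose library names end in a letter (columns). Red marks a higher replicate 1. The TRF ZT20 row is red in 11 of 12 tissues and the ALF ZT16 row is blue in all 12.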

How the data were processed

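The deposited table held expected counts per gene and library, and 29.62% of its values were not whole, all of them ending in 0.5. Per the submitters' processing notes, CASAVA 1.8, FastQC 0.11.8, STAR 2.5.3a and HOMER 4.10 were used, with GRCm38 (mm10). How sequencing runs were combined is not given in the sources used here. Of the rows, 4 with repeated names were dropped and 26 had date-like names. Counts were rounded, filtered with filterByExpr, scaled by TMM and fitted in each tissue with edgeR 4.0.16 (quasi-likelihood, R 4.3.3, limma 3.58.1), with feeding and clock time as terms. P-values were adjusted by Benjamini-Hochberg over all genes of a tissue and test, at 0.05. Rhythms were tested with 24 h terms, and tissue pairs with an interaction. DESeq2 1.42.0 was an alternative, as were other scaling, no filter, GC offsets (transcript GC known for 97.02% of rows), the number of runs, and left-out replicates, times and libraries. The fits were tested on simulated data.

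Levels are CPM, counts scaled to library size, computed from the authors' expected counts. The deposited totals limit precision, since low genes in shallow libraries rest on few reads, and 3 libraries held over 100 M counts. Per-sample columns unused: 0. Replicate numbers were checked as pairs in 245 comparisons: same-numbered deviations correlated at -0.809 to 0.806. Of these r values 90 exceeded 0.1 and 60 were under -0.1, and the replicate block therefore stayed an alternative. In each role the genes called in most tissues and those called the other way are named. In tissues with at least 10 calls up to 6 with the smallest p and up to 3 called the other way are named, and for differences the 3 smallest p. The members and lists were chosen with earlier results of these data known.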

Additional observations from a re-analysis of the deposited data

Results flagged for a closer look

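The TRF effect differed between ZT14 to ZT22 and ZT0 to ZT12, tested as a difference, for 9 member and tissue pairs, each with a larger effect in ZT14 to ZT22. These were 1.07% of the member tests. Over all genes 0.493% of tests had a larger and 0.402% a smaller effect in ZT14 to ZT22. In the liver the differences were 0.60 for Eif2ak2, 0.40 for Irf9, 1.10 for Oas1b, 0.96 for Oas2, 0.82 for Oasl1 and 0.50 for Stat2 on the log2 scale. In the stomach it was 0.77 for Oasl1, and in eWAT it was 0.27 for Ddx58 and 0.72 for Ifit3. The 24 h rhythm differed between TRF and ALF for 12 members in the adrenal, 1 in the heart, 15 in the liver and 11 in eWAT. The shares over all genes were 1.15%, 5.18%, 8.71% and 11.3% in that order. The TRF effect differed between tissues for 5 of 41 members between heart and muscle, against 19.1% of all genes. Between iWAT and eWAT it differed for 34 of 42, against 58.6% of all genes.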

How the results depend on the processing

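The lowest and highest counts without a replicate were 49 and 108 higher and 13 and 19 lower over all tissues (178 and 34 with all libraries). Among higher calls they were 0 and 16 in adrenal, 4 and 31 in heart, 1 and 5 in liver, 0 and 9 in spleen, 1 and 3 in eWAT and 25 and 37 in iWAT, and among lower calls 3 and 6 in eWAT and 4 and 9 in jejunum. They were 2 and 59 higher and 4 and 6 lower in ZT0 to ZT12, 20 and 67 higher and 1 and 5 lower in ZT14 to ZT22, and 0 and 0 for the window difference. For rhythms they were 73 and 134 in TRF, 9 and 16 in ALF and 0 and 2 for the difference, and for tissue pairs 0 and 3 between heart and muscle and 19 and 26 between the fat depots. These fits have fewer libraries. Counting only log2 changes of at least 0.5 left 58 higher and 3 lower over all tissues, 1 higher in adrenal, 5 in heart, 7 in liver, 6 in spleen, 1 in eWAT and 24 in iWAT, and 2 lower in eWAT and 0 in jejunum. The shares of all genes at this cut-off are not given here, so these counts cannot be read against them. Without single clock times, adrenal had 12 higher (ZT0), spleen 9 (ZT4, ZT14 or ZT16) or 8 (ZT22), and eWAT 6 (ZT0 or ZT16) or 5 (ZT18, ZT20 or ZT22). Without ZT0 and ZT22, 96 were higher in ZT14 to ZT22. GC offsets left 5 lower in jejunum and turned jejunal Bst2 to -0.01, the cause was not tested, and kept 148 of the 178 higher and 19 of the 34 lower calls. With the replicate block 209 of the 212 calls passed, including 38 higher in iWAT, and no count named here moved by over 1.5 times. DESeq2 kept 211 of 212 and called 5 members in the lung, against 3. Leaving out library codes, chosen after seeing the data, gave 157 or 175 higher calls.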
